A study of Homo sapiens with 4 samples.

Results

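PTBP1 knockdown was set against control siRNA in the UM-UC-3 line, which is established and comes from a human bladder cancer. The comparison used the si-PTBP1 library and the control library, 2 of the 4 RNA-seq libraries of the series. Both were picked by their labels. Cells of the si-PTBP1 library received a mixture of 2 siRNAs against PTBP1, and cells of the control library received 1 negative control siRNA, in both cases at 75 nM with Lipofectamine RNAiMAX. The time from transfection to RNA extraction is given by the study as 48 h for the control and si-hnRNPK libraries and is not given in the sources used here for si-PTBP1. The other libraries, labelled si-hnRNPK and si-lncRNA-LBCS, came from the same line and received their own siRNAs at the same dose. With 1 library per condition, the spread between cultures is unknown for every difference given here.

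PTBP1, the polypyrimidine tract binding protein 1, is an RNA-binding protein that binds pyrimidine-rich stretches of pre-mRNAs and mostly represses the splicing of nearby exons. Among its best known targets is PTBP2, its neuronal paralog: PTBP1 causes skipping of an exon of PTBP2, and the skipped transcript is cleared by nonsense-mediated decay. PTBP1 falls and PTBP2 rises when neurons differentiate. The tables hold 1 value per gene, so exon inclusion was not measured here.

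The siRNAs are shown first, with the sequences given by the labels. Each antisense strand is written 5′ to 3′ without its overhang, with the seed (bases 2 to 8, the stretch through which it can act on further mRNAs) in capitals.
si-PTBP1 siRNA-1 antisense: uUGUACUUgacguugaggc
si-PTBP1 siRNA-2 antisense: uUGUGCAGgucaaugaggg
control siRNA antisense: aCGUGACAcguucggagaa

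PTBP1 lies on the plus strand of chromosome 19 from 797075 to 812327 (GENCODE release 29, GRCh38). The siRNA-1 site is at chr19:805080-805098 (exon 7 of 14), and the siRNA-2 site is at chr19:810750-810768 (exon 14 of 14). Of 12 annotated protein-coding transcripts of PTBP1, 6 hold the sites, and in all 6 they are coding. No other annotated gene holds either site without a mismatch. The closest stretches of the paralogs PTBP2 and PTBP3 are set under the PTBP1 sites, since these mRNAs resemble the target most; capitals mark the bases that differ from PTBP1.
PTBP1 at the siRNA-1 site: gcctcaacgtcaagtacaa
PTBP2 at the siRNA-1 site: gcctcaaTgtTaTTtGTaa
PTBP3 at the siRNA-1 site: gcctTaaTgtGaaAtaTaa
PTBP1 at the siRNA-2 site: ccctcattgacctgcacaa
PTBP2 at the siRNA-2 site: ccTtGattgaTctTcaTaa
PTBP3 at the siRNA-2 site: ccctcattgaGctTcaTaa
PTBP2 differed at 6 of 19 bases for siRNA-1 and at 5 for siRNA-2, and PTBP3 at 5 and 3.

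Values are CPM, reads per gene brought to a common library total. Between 54301152 and 70232674 reads per library lay on listed genes, and 3 reads corresponded to 0.0489 CPM in control and 0.0535 CPM in si-PTBP1. Changes are differences in log2(CPM + 1), si-PTBP1 minus control, which come out too small for genes at low CPM. A gene was called up- or down-regulated at a difference of at least 1. Intervals in parentheses were computed from the reads of both libraries (95%, exact Clopper-Pearson) and cover counting error only. Of 7 genes that mark the line or epithelial cells 6 were measured, with changes from -0.51 to 0.60 and a median of 0.03. The mesenchymal genes VIM and CDH2 were at 2344 and 47.1 CPM in control and at 1647 and 71.7 CPM in si-PTBP1. The epithelial keratin genes KRT8 and KRT18 were at 63.0 and 121.4 CPM in control and at 84.4 and 92.3 CPM in si-PTBP1, so within each pair the changes had opposite signs. Of 14 white blood cell markers, only CSF1R reached 1 CPM in either library (1.04 and 0.749 CPM). Of 11 fibroblast and endothelial markers, 3 did. These were PDGFRA at 3.18 and 5.67 CPM, PDGFRB at 0.538 and 1.73 CPM, and COL1A1 at 0.407 and 2.25 CPM. PDGFRB and COL1A1 reached 1 CPM in si-PTBP1 only, so the filter let them in through the library where they were higher. TEK, at 0.489 CPM in control and 0.125 CPM in si-PTBP1, was left out by the same filter. COL1A1 is also among the matrix genes below, and the part of such cells in the rises of these genes was not tested. In these bulk libraries fewer cells of a type and less RNA per cell cannot be told apart.

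PTBP1 mRNA was lowest in the library meant to lack it. It was at 280.0 CPM in control, 253.3 CPM in si-hnRNPK, 326.6 CPM in si-lncRNA-LBCS and 89.7 CPM in si-PTBP1. The 3 libraries without a PTBP1 siRNA lay close together and well above si-PTBP1. PTBP1 was thus at 32.0% of the control level, a log2 change of -1.63 (-1.68 to -1.59) from 17188 and 5031 reads.

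PTBP2, which PTBP1 normally holds down, moved the other way by a like amount. It was at 141.2 CPM in control and 443.0 CPM in si-PTBP1, a 3.14-fold rise and a log2 change of 1.64 (1.61 to 1.68). In si-hnRNPK and si-lncRNA-LBCS it was at 68.2 and 77.5 CPM, so si-PTBP1 was the only library above the control. PTBP3, the third paralog and also a splicing repressor, was at 160.3 CPM in control and 185.7 CPM in si-PTBP1, a log2 change of 0.21 (0.17 to 0.25). This lies near the median of all genes tested, which was 0.12. After median-of-ratios scaling, which sets that median to 0.01, PTBP1 was at -1.76, PTBP2 at 1.52 and PTBP3 at 0.09.

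**Figure D1:**
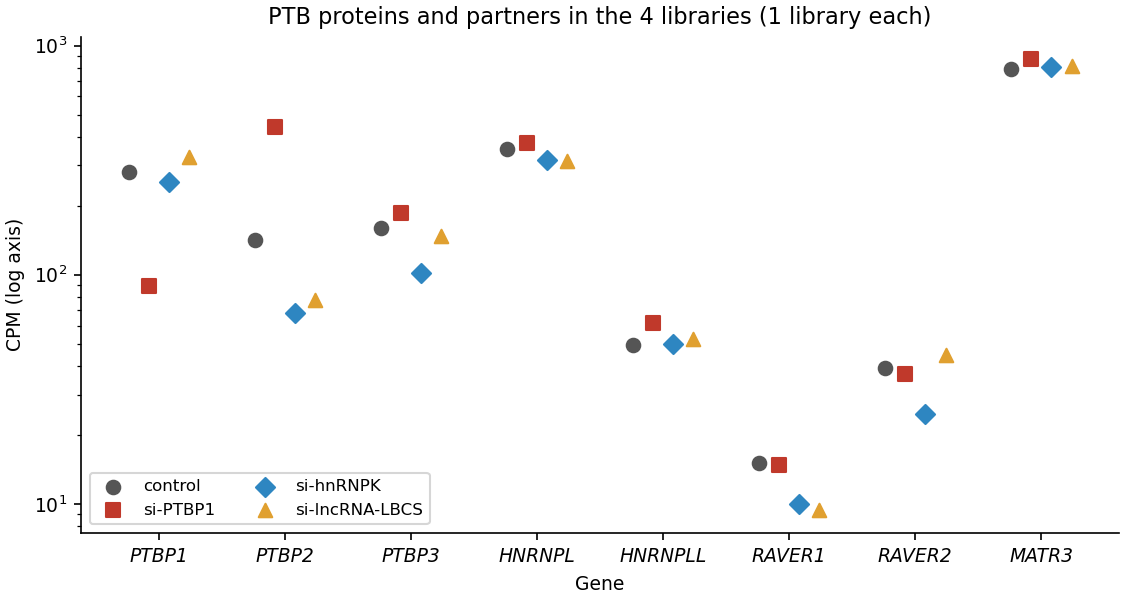
CPM (log axis) of PTBP1, its paralogs and genes of partner proteins in the 4 libraries, 1 point per library. PTBP1 was lowest in si-PTBP1 at 89.7 CPM and PTBP2 highest there at 443.0 CPM, while MATR3 and HNRNPL lay close together in the 4 libraries.

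Partners and relatives of PTBP1 did not pass the threshold. HNRNPL and HNRNPLL, which encode related proteins that also bind exons repressed by PTBP1, had log2 changes of 0.09 and 0.31. RAVER1 and RAVER2, whose proteins bind PTBP1, had -0.02 and -0.08, and MATR3, which encodes another partner, 0.14. Of 55 other splicing regulators measured, 0 passed the threshold in either direction, where 3.53% of all genes did. Their median was 0.02 (0.12 over all genes). The largest difference among them was 0.90, for NOVA1, a neuronal splicing regulator at 2.74 CPM in control and 5.97 CPM in si-PTBP1. CELF2 (0.60) and KHDRBS3 (0.53) followed.

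Of the 24699 genes listed in both tables, 13855 reached 1 CPM in control, si-PTBP1 or both and were tested. Of these, 404 were up-regulated, 2.92% of the genes tested, and 85 were down-regulated, 0.613%. The rises thus made up 82.6% of the 489 called genes (3.53%). Median-of-ratios scaling left 257 rises (1.85%) and gave 133 falls (0.96%), and rises were 65.9% of these calls (2.81%). The 257 rises and 85 falls called under both scalings include each gene named below unless stated. The median change of 0.12 was removed by that scaling, so list medians are best read against it, and 78.9% of genes differed by less than 0.5. No called gene rested on fewer than 66 reads in the library where it was higher. Just inside the threshold the smallest rise called was 1.0007 and the smallest fall called -1.0016. Just outside it the nearest values were 0.9983 and -0.9985.

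Many of these calls depended on the control library. When the geometric mean of si-hnRNPK and si-lncRNA-LBCS took the place of the control, 307 genes were up and 111 down. Of the 404 rises against control, 108 (26.7%) were also among these, and of the 85 falls, 32 (37.6%). PTBP1 stayed at -1.67 and PTBP2 was at 2.59 in that setting, which was added after the data were seen.

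**Figure D2:**
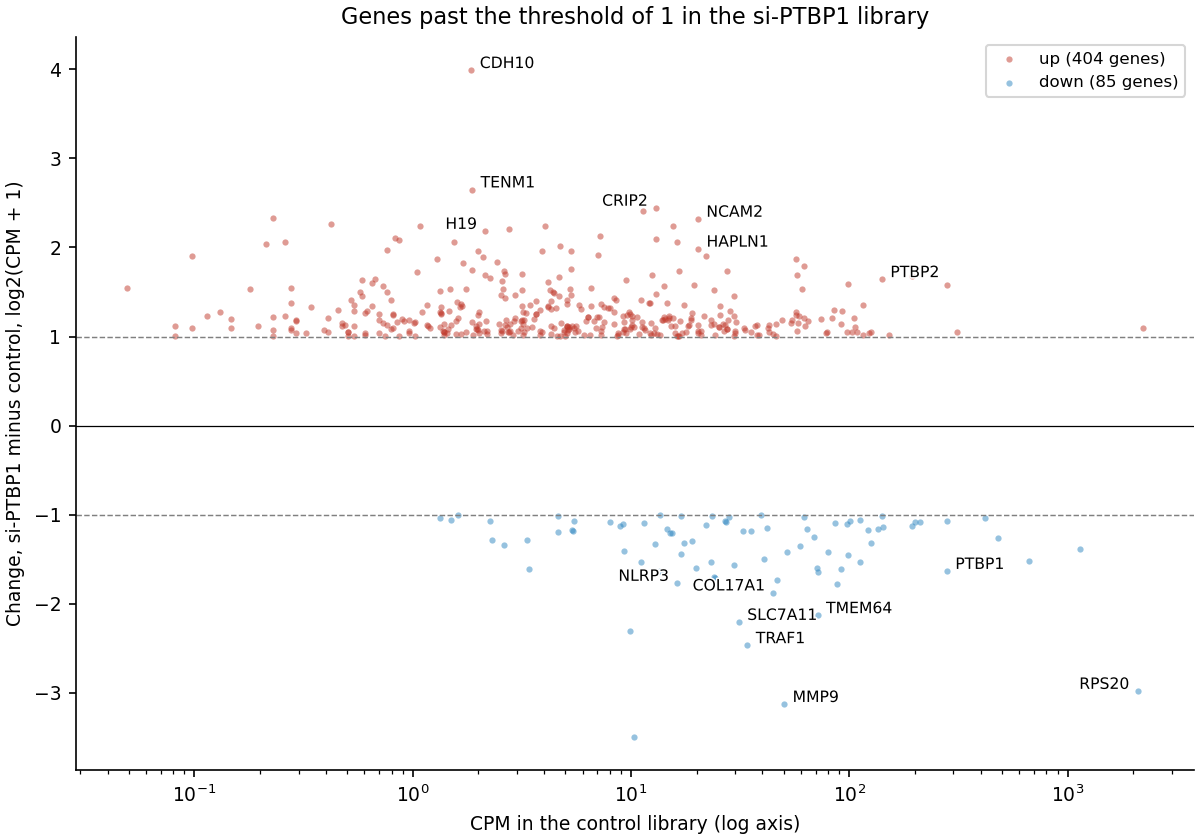
Each point is 1 of the 404 up-regulated or 85 down-regulated genes, with the control level in CPM (log axis) against the change in log2(CPM + 1). CDH10 has the largest rise at 3.99, RPS20 stands out among falls for its control level of 2094 CPM, and the lowest point at -3.49 is a gene listed without a symbol.

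The 15 largest rises among genes at 10 CPM or more are given by the role of their products, starting at the cell surface. CDH10, which encodes a cadherin of neuronal contacts, was at 1.86 CPM in control, 8.54 CPM in si-hnRNPK, 9.37 CPM in si-lncRNA-LBCS and 44.4 CPM in si-PTBP1. Its log2 change of 3.99 (3.80 to 4.17) rested on 114 and 2489 reads. PCDH10, a protocadherin gene, was at 11.3, 23.0, 28.6 and 64.6 CPM in the same order (2.41), and CDH12 at 7.19, 20.7, 17.4 and 34.9 CPM (2.13). In all of these si-PTBP1 was highest and the control lowest, with the other knockdown libraries between them.

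NCAM2, a neural cell adhesion molecule of the immunoglobulin family, was at 20.3 CPM in control, 70.1 CPM in si-hnRNPK, 45.3 CPM in si-lncRNA-LBCS and 105.2 CPM in si-PTBP1 (2.32). TENM1, a teneurin gene on chromosome X with roles in neuronal connections, was at 1.87, 8.89, 3.70 and 17.03 CPM (2.65). CSMD3, a gene for a large membrane protein of the brain, was at 15.6, 31.9, 32.1 and 77.3 CPM (2.24), and ADGRB3, an adhesion G protein-coupled receptor gene, at 4.02, 6.83, 8.51 and 22.8 CPM (2.24). The order of the libraries was again si-PTBP1 first and control last.

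Genes of secreted and signalling proteins made up the others. SEMA3A, a secreted guidance cue that repels axons, was at 16.2 CPM in control, 45.8 CPM in si-hnRNPK, 31.7 CPM in si-lncRNA-LBCS and 70.9 CPM in si-PTBP1 (2.06). EDIL3, a matrix ligand of integrins, had a change of 2.10, HAPLN1, which links hyaluronan to proteoglycans, 1.99, and GRIK2, a kainate receptor subunit for glutamate, 1.96. PDE7B, a cAMP phosphodiesterase gene, rose by 2.20 and PGM2L1, a sugar phosphate enzyme gene, by 2.02. CRIP2, a LIM domain protein gene, rose by 2.44, but at 75.3 CPM it was close to the 67.5 CPM of si-hnRNPK. H19, an imprinted long noncoding RNA, was at 2.15 CPM in control, 2.76 CPM in si-hnRNPK, 4.26 CPM in si-lncRNA-LBCS and 13.3 CPM in si-PTBP1 (2.18). Against the mean of the other knockdown libraries CDH12, CRIP2, GRIK2, HAPLN1, NCAM2 and SEMA3A did not reach the threshold.

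**Figure D3:**
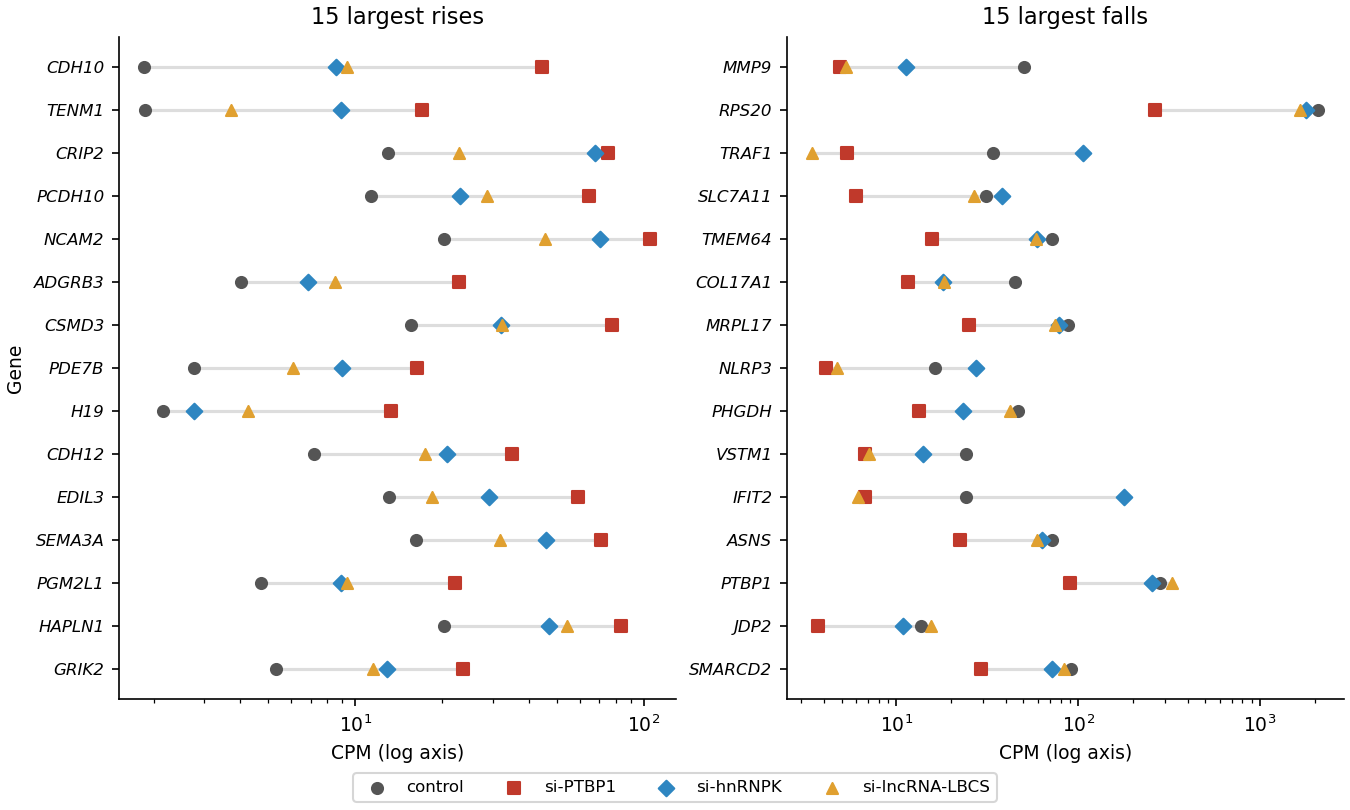
CPM (log axis) of the 15 largest rises and the 15 largest falls in the 4 libraries, 1 point per library, with a grey line from the lowest to the highest. In the 15 rises si-PTBP1 is the highest and control the lowest library; among the falls RPS20, SLC7A11, MRPL17, ASNS and SMARCD2 are far lower in si-PTBP1 than in the other 3 libraries, whereas MMP9 and VSTM1 are also below control in the other knockdowns.

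Gene families were then described after their leading members had been seen, so they support nothing on their own. Of 25 cadherin and protocadherin genes measured, 11 were up-regulated and 0 down-regulated, with a median of 0.89, against 2.92% up and 0.613% down over all genes tested, and 8 rises held under median-of-ratios scaling. Besides those named above, PCDH15 was at 57.4 CPM in control and 187.4 CPM in si-PTBP1 (1.69), PCDH9 at 5.30 and 20.4 CPM (1.76) and PCDH7 at 29.7 and 83.4 CPM (1.46). PCDH7 stayed at 25.1 and 35.7 CPM in si-hnRNPK and si-lncRNA-LBCS, near the control, while PCDH15 was at 119.1 and 99.5 CPM. Of 15 semaphorin genes 3 rose, namely SEMA3A, SEMA3E (1.40) and SEMA5B (1.15). Of 7 glutamate receptor subunit genes 2 rose, GRIK2 and GRIN3B (1.90). Of 11 voltage-gated calcium channel subunit genes 2 rose, CACNA1G and CACNA1H. CACNA1G, a T-type channel gene, was at 4.45 CPM in control, 2.95 CPM in si-hnRNPK, 2.61 CPM in si-lncRNA-LBCS and 14.2 CPM in si-PTBP1. CACNA1H, also T-type, was at 5.75, 3.94, 4.33 and 16.3 CPM, so for both the rise was seen in si-PTBP1 alone.

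The list of neuronal, synaptic and neurosecretory genes held 69 symbols, of which 28 were measured. Of these, 2 rose, where 2.92% of all genes did, and 0 fell, with a median of 0.33. That median depended on the filter. It was 0.185 over 53 genes without a filter and 0.233 over 19 genes with a filter of 5 CPM. CHGB, a granule protein of neurosecretory cells, was at 1.66 CPM in control and 5.85 CPM in si-PTBP1 (1.36), and KIF5A, a neuronal kinesin motor, at 3.83 and 8.79 CPM (1.02). KIF5A fell short after median-of-ratios scaling (0.91). L1CAM, a neuronal adhesion molecule, was at 17.3 and 30.4 CPM (0.78). SCG2, a secretogranin gene, was at 0.375 and 1.59 CPM (0.91), also short of the threshold, and was measured only through its si-PTBP1 level. Of the 28 genes, 18 lay above the median of all genes, a count that such members raise. Of 15 genes of the repressor REST and its cofactors, which hold neuronal genes down in other cells, 0 passed the threshold and the median was 0.18. REST itself was at 44.4 and 41.1 CPM.

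Of 16 measured genes with an exon known to be regulated by PTBP1, only PTBP2 and TPM2 passed the threshold. Both rose, where 2.92% of all genes did. TPM2, which encodes beta-tropomyosin, was at 310.3 CPM in control and 643.7 CPM in si-PTBP1 (1.05), but also at 628.5 CPM in si-hnRNPK, and median-of-ratios scaling put it at 0.92. TPM1 was at 0.74 and the clathrin light chain gene CLTB at 0.61. PKM, whose alternative exons give the M1 and M2 forms of pyruvate kinase, was at 2107 and 1845 CPM (-0.19), and the kinase gene SRC at 3.42 and 4.19 CPM (0.23). A change in exon use without a change in the total is not visible in these values.

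Of 30 contractile and cytoskeletal genes 6 rose, where 2.92% of all genes did, and 0 fell, with a median of 0.18. The rises of ACTA2, TPM4 and PDLIM7 held under median-of-ratios scaling. Against the mean of the other knockdown libraries PDLIM7 and PXN rose and CALD1 fell, and the calls of ACTA2 and TPM4 were lost. ACTA2, the smooth muscle actin, was at 1.55 CPM in control and 9.63 CPM in si-PTBP1 (2.06), and at 24.2 CPM in si-hnRNPK. TPM4, another tropomyosin, was at 279.3 CPM in control, 742.0 CPM in si-hnRNPK, 564.6 CPM in si-lncRNA-LBCS and 835.5 CPM in si-PTBP1 (1.58). PDLIM7, an actin-associated LIM protein, was at 56.7 CPM in control, 89.6 CPM in si-hnRNPK, 48.8 CPM in si-lncRNA-LBCS and 138.9 CPM in si-PTBP1 (1.28), highest in si-PTBP1. PDLIM5 (1.07), TPM2 and CNN1 (1.00) were the others.

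Matrix genes moved both ways. Of 36 measured, 5 rose and 1 fell, against 2.92% and 0.613% of all genes, with a median of 0.21. POSTN, the matrix protein periostin, was at 0.424 CPM in control and 5.83 CPM in si-PTBP1 (2.26), and the fibrillar and beaded collagen genes COL5A2 (1.69), COL6A1 (1.23), COL5A1 (1.21) and COL1A1 (1.21) rose with it. Against the mean of the other knockdown libraries POSTN and COL1A1 kept their calls, and those of COL5A2, COL6A1 and COL5A1 were lost. COL5A2 was at 8.60 CPM in si-hnRNPK and 9.15 CPM in si-PTBP1. Over 22 collagen genes, a family taken after values were seen, 7 rose and 1 fell. The fall was that of COL17A1, a hemidesmosome collagen, at 44.9 CPM in control and 11.5 CPM in si-PTBP1 (-1.87), with 17.97 and 18.2 CPM in the other knockdowns. Of 23 genes of epithelial-mesenchymal transition and adhesion, FN1 (fibronectin) and SNAI1 rose. FN1 was at 57.2 CPM in control, 188.8 CPM in si-hnRNPK, 78.0 CPM in si-lncRNA-LBCS and 211.1 CPM in si-PTBP1 (1.87). SNAI1, a repressor of epithelial genes, had 1.10 and was at 0.99 after scaling. Neither FN1 nor SNAI1 was called against the mean of the other knockdown libraries.

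Among the 15 largest falls, RPS20, a protein of the small ribosomal subunit, was at 2094 CPM in control, 1798 CPM in si-hnRNPK, 1657 CPM in si-lncRNA-LBCS and 265.1 CPM in si-PTBP1. It was at 12.7% of control, a log2 change of -2.98 (-3.00 to -2.95), and si-PTBP1 stood far below the other 3. Of 75 ribosomal protein genes it was the only one past the threshold, which 3.53% of all genes passed. Of the 75, 73 lay below the median of all genes, and the list median was -0.36. RPL3 was next at -0.90, and passed the threshold after median-of-ratios scaling (-1.03). Ribosomal protein genes have many processed pseudogenes, and how reads shared with these were counted is not given in the sources used here. The sums of the 75 genes were 99641 CPM in control and 76614 CPM in si-PTBP1. MRPL17, a mitochondrial ribosomal protein gene, was at 88.2 CPM in control, 78.5 CPM in si-hnRNPK, 74.8 CPM in si-lncRNA-LBCS and 25.1 CPM in si-PTBP1 (-1.77).

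Another 3 of the largest falls were those of genes of amino acid supply. SLC7A11, the cystine importer, was at 31.2 CPM in control, 38.1 CPM in si-hnRNPK, 26.9 CPM in si-lncRNA-LBCS and 5.99 CPM in si-PTBP1 (-2.20). ASNS, asparagine synthetase, was at 72.0, 63.3, 59.6 and 22.4 CPM (-1.64). PHGDH, the first enzyme of serine synthesis, was at 46.6, 23.1, 42.1 and 13.3 CPM (-1.73), and so was lowered in si-hnRNPK too. These belong to the list of the unfolded protein and integrated stress response, of which 24 were measured, 0 rose and 5 fell, against 0.613% of all genes. The other 2 were CHAC1, which degrades glutathione (3.42 and 0.446 CPM, -1.61), and the lipoprotein receptor gene VLDLR (-1.11). The list did not move as 1 block, since its median was 0.03. ATF4, the transcription factor behind many of these genes, was at -0.42, DDIT3 at 0.30, TRIB3 at 0.48 and the chaperone gene HSPA5 at 0.33.

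Several other falls left the si-PTBP1 level near that of si-lncRNA-LBCS. MMP9, a secreted gelatinase, was at 50.3 CPM in control, 11.3 CPM in si-hnRNPK, 5.25 CPM in si-lncRNA-LBCS and 4.89 CPM in si-PTBP1 (-3.12). TRAF1, a signalling adaptor of tumour necrosis factor receptors, was at 34.2, 105.6, 3.45 and 5.37 CPM (-2.46). NLRP3, an inflammasome sensor, was at 16.3, 27.5, 4.68 and 4.08 CPM (-1.76). For VSTM1, an immunoglobulin-domain receptor gene that fell by 1.71, si-PTBP1 and si-lncRNA-LBCS were at 6.71 and 7.03 CPM. Against the mean of the other knockdown libraries MMP9, VSTM1 and COL17A1 did not reach the threshold.

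The remaining large falls were those of TMEM64, a membrane protein gene at 71.6 CPM in control and 15.6 CPM in si-PTBP1 (-2.13), JDP2, a repressor of AP-1 at 13.6 and 3.73 CPM (-1.63), and SMARCD2, a chromatin remodelling subunit at 91.4 and 29.3 CPM (-1.61). The lowest of these genes in the other 2 knockdown libraries were at 10.9 CPM for JDP2, 58.3 CPM for TMEM64 and 71.9 CPM for SMARCD2. Outside the naming rule, the gene ENSG00000184779, listed without a symbol, had 630 reads (10.3 CPM) in control and 0 in si-PTBP1, which allows up to 0.0535 CPM. It was also at 0 in si-lncRNA-LBCS and at 0.0552 CPM in si-hnRNPK, so it was above 3 reads in the control library only.

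Interferon-stimulated genes gave 1 rise and 3 falls of 39 measured, against 2.92% and 0.613% of all genes, with a median of 0.05. The falls were those of OASL, an antiviral protein of the oligoadenylate synthetase family (9.89 and 1.21 CPM, -2.30), IFIT2 (24.0 and 6.71 CPM, -1.70) and IFIT3 (23.4 and 7.42 CPM, -1.53), which encode antiviral RNA-binding proteins. In si-hnRNPK these stood at 45.7, 177.9 and 157.9 CPM, and in si-lncRNA-LBCS at 2.05, 6.15 and 7.65 CPM. GBP1, a guanylate-binding protein, rose from 1.60 to 5.81 CPM (1.39). Under median-of-ratios scaling the falls were 5. Against the mean of the other knockdown libraries, which holds the high si-hnRNPK levels, 0 rose and 26 fell of 51 measured, with a median of -1.04. None of 16 MHC class I genes passed the threshold (median 0.15). Among 16 cytokine and inflammatory genes IL11 rose (62.7 and 136.9 CPM, 1.11) while the chemokine CCL2 (68.9 and 28.3 CPM, -1.25) and the cytokine gene IL32 (-1.19) fell, and IL11 was at 0.99 after scaling.

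Cell cycle genes lay below the rest by less than the threshold. Over all genes tested 2.92% rose and 0.613% fell, so 0 calls or 1 call in lists of this size says little. Of 41 S phase genes 0 passed the threshold and the median was -0.22, and of 52 G2/M genes 0 passed it and the median was -0.30. Of these, 39 and 49 lay below the median of all genes. MKI67, the proliferation marker, had -0.88 and TMPO, a nuclear envelope gene, -0.92. Both passed the threshold after median-of-ratios scaling. These directions hold against the control library, but against the mean of the other knockdown libraries the medians were 0.32 and 0.35. Of 13 histone genes 0 passed and the median was -0.47, and 0.18 against the same mean. Of 23 cyclin, kinase and inhibitor genes CDKN1C, which encodes the inhibitor p57, rose (2.79 and 7.35 CPM, 1.14), and CCNA2, cyclin A2, was at -0.91. None of 26 p53 target genes passed, with a median of 0.23, and CDKN1A, the inhibitor p21, was at 0.54.

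Genes of cell death moved in both directions. Of 28 genes of the BCL2 family and caspases 2 rose and 3 fell, against 2.92% and 0.613% of all genes. Against the mean of the other knockdown libraries none of these 5 calls was left, and BCL2L11 alone was called. BMF, a BH3-only death activator, was at 0.815 and 3.32 CPM (1.25), and another, BCL2L11, at 5.23 and 11.2 CPM (0.97), just short. BCL2A1, an anti-apoptotic member, fell from 17.4 to 6.37 CPM (-1.32), BIRC3, an inhibitor of apoptosis, from 281.6 to 133.7 CPM (-1.07), and BNIP3, a mitophagy receptor, from 480.8 to 200.6 CPM (-1.26). BCL2A1 and BIRC3 were also low in si-lncRNA-LBCS, at 6.65 and 66.8 CPM, while BNIP3 was at 443.3 CPM there.

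In metabolism, PGK1 and PGAM1 carried the largest glycolytic falls. PGK1, phosphoglycerate kinase, was at 1143 CPM in control, 1006 CPM in si-hnRNPK, 1172 CPM in si-lncRNA-LBCS and 438.1 CPM in si-PTBP1 (-1.38). PGAM1, phosphoglycerate mutase, was at 667.4, 502.0, 754.9 and 232.6 CPM (-1.52). For both si-PTBP1 lay below the other 3 libraries. SLC2A3, a glucose transporter gene, rose (1.35), and the 24 measured genes had a median of -0.31. Of 26 cholesterol genes 0 rose and MSMO1, a sterol oxidase, fell from 125.4 to 49.8 CPM (-1.32), with a median of -0.39. Of 19 genes of HIF subunits and targets DDIT4, an inhibitor of mTOR signalling, rose (1.04, and 0.91 after scaling) and BNIP3 fell. Of 19 genes of NRF2, its inhibitor and its targets 0 rose and 2 fell, SLC7A11 among them. Of 34 lysosome and autophagy genes TFEB, the transcription factor of lysosome genes (4.29 and 12.9 CPM, 1.40), and CTSD, the protease cathepsin D (58.1 and 130.1 CPM, 1.15), rose and 0 fell, with a median of 0.35. The shares of all genes tested were 2.92% up and 0.613% down.

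Among signalling genes, the list of TGF-beta, BMP and ID genes had the highest median of the lists with at least 8 members, 0.57. Of 20 measured, PMEPA1 (13.8 and 32.8 CPM, 1.19), BMP2 (1.19), INHBA (1.16) and ID4 (1.08, and 0.97 after scaling) rose and 0 fell. Over all genes tested 2.92% rose and 0.613% fell. Of 25 genes of ERK output and AP-1, the immediate early genes FOSB (0.261 and 4.24 CPM, 2.06), FOS (2.56 and 9.97 CPM, 1.62) and EGR1 (0.277 and 2.71 CPM, 1.54) and JUND (18.8 and 43.9 CPM, 1.18) rose. FOS and FOSB were higher still in si-hnRNPK, at 19.7 and 8.47 CPM, and the list median was 0.07. Of 29 receptor tyrosine kinase and ligand genes EREG rose (1.13) and FGF1 fell from 19.8 to 5.89 CPM (-1.59). None of 15 genes of YAP-TEAD factors, their kinase and their targets passed (median 0.03). Of 8 urothelial genes measured TP63, a basal cell transcription factor, rose from 0.342 to 2.37 CPM (1.33), and was at 2.50 CPM in si-hnRNPK. Against the mean of the other knockdown libraries PMEPA1 and FGF1 kept their calls. Those of BMP2, INHBA, ID4, FOSB, FOS, EGR1, JUND, EREG and TP63 were lost.

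In a chosen list of abundant long noncoding RNAs, 3 of 12 rose and 0 fell, where 2.92% and 0.613% of all genes did. Over all annotated lincRNAs, 20 of 370 tested rose and 2 fell. MALAT1, a nuclear RNA, was at 2213 CPM in control, 3098 CPM in si-hnRNPK, 1338 CPM in si-lncRNA-LBCS and 4714 CPM in si-PTBP1 (1.09, and 0.96 after scaling). NEAT1, the scaffold of paraspeckles, was at 193.9, 401.9, 168.2 and 621.5 CPM (1.68), and H19 is given above. For all 3 si-PTBP1 was highest. Of 14 transcripts known to be cleared by nonsense-mediated decay, the pathway that PTBP1 uses to hold PTBP2 down, 0 passed the threshold and the median was -0.25. The snoRNA host genes SNHG15, GAS5 and SNHG16 were at -0.68, -0.66 and -0.65. Of 13 genes of decay factors 0 passed, with a median of 0.01.

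**Figure D4:**
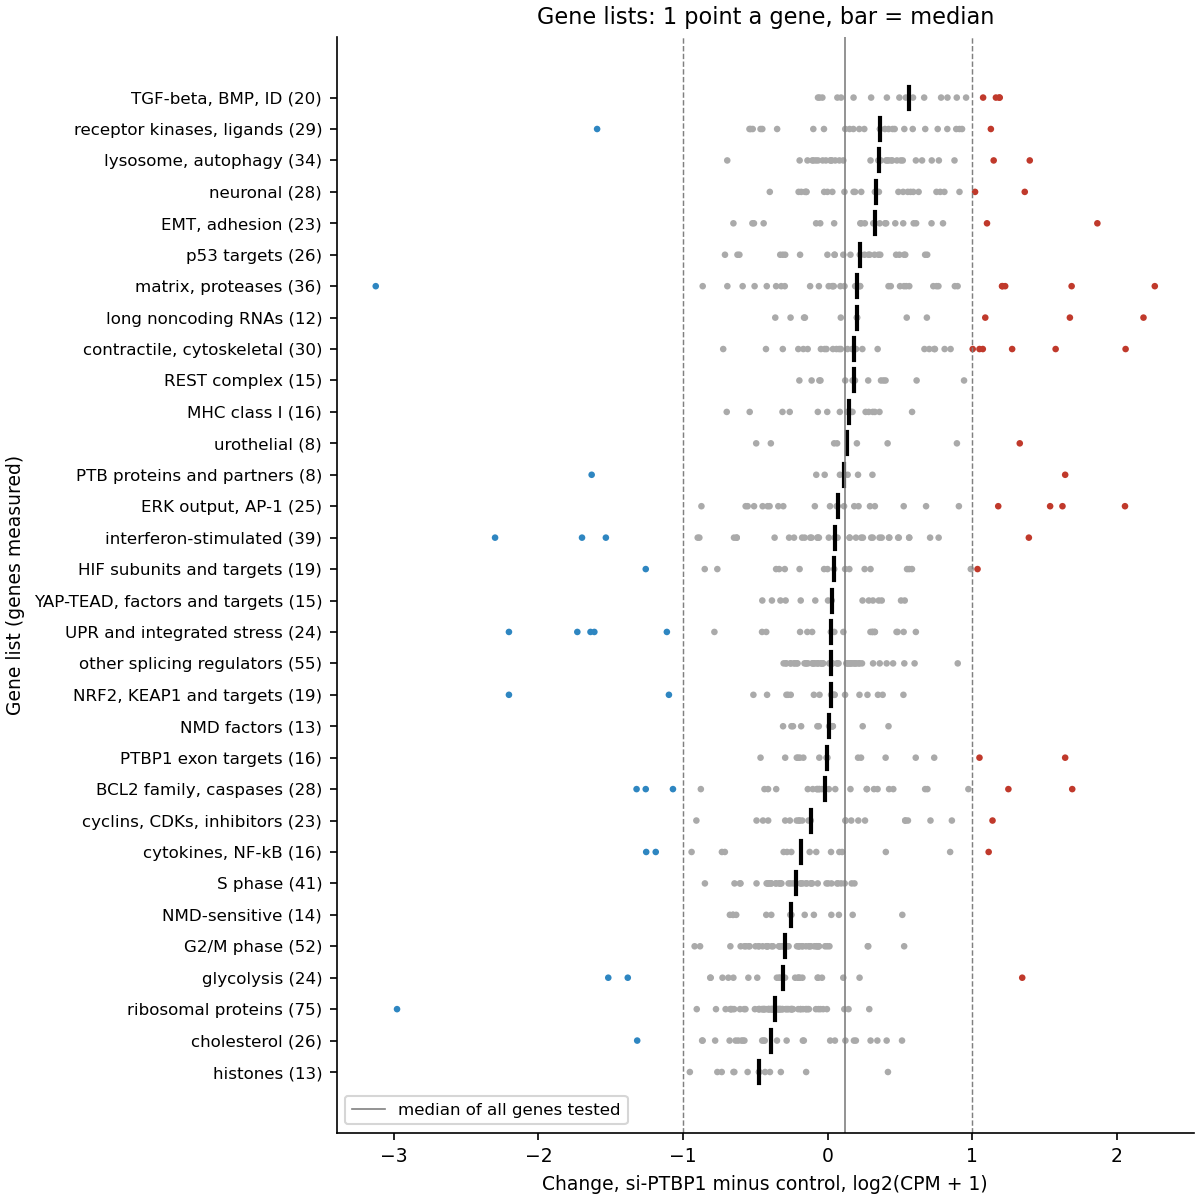
Change in log2(CPM + 1) of each measured gene (point) in 32 gene lists with at least 8 measured genes, ordered by list median (black bar); red and blue points pass the threshold of 1, and the grey line is the median of all genes tested, 0.12. The TGF-beta and BMP list lies highest at 0.57 and the histone list lowest at -0.47, and RPS20, MMP9 and SLC7A11 lie far from the rest of their lists.

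Up-regulated genes were long on the genome. Their median span, from first to last annotated base, was 54.8 kb, against 30.5 kb for the genes tested and 26.8 kb for down-regulated genes. CSMD3 spans 1214.2 kb, CDH12 1103.0 kb, GRIK2 888.8 kb and ADGRB3 754.1 kb. Of the up-regulated genes 19.3% spanned over 200 kb, and of the down-regulated genes 13.3%, against 7.3% of the genes tested. When the genes were put into 10 groups of equal size by span, the median change lay between 0.08 and 0.13 in the first 8, at 0.17 in the ninth and at 0.26 in the longest. In the longest group 95 of 1346 genes rose (7.06%), against 1.71% to 3.42% in the others, and 14 fell, against 5 to 14 in the others. The median of that group was -0.066 in si-hnRNPK and -0.018 in si-lncRNA-LBCS, each against the same control. With groups numbered from the shortest span, groups 6 to 9 of si-hnRNPK were at -0.137, -0.137, -0.155 and -0.16. The longest group thus lay above them in that library too. Only groups 2 and 3 were higher there, at -0.063 and -0.057. In si-lncRNA-LBCS all 10 groups lay between -0.025 and 0.008.

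The longest group also had the higher median within each of 5 classes of control level. The class under 1 CPM in control does not bear on this. Its genes were tested only where si-PTBP1 reached 1 CPM, so a rise there was fixed by the filter. At 20 to 100 CPM its median was 0.21, against 0.07 for the other genes, and 3.34% against 1.11% rose. At 5 to 20 CPM 9.52% against 2.94% rose. At 100 CPM and over the share that rose was 0.602% against 0.783%, with medians of 0.16 and -0.07. Up-regulated genes had a median control level of 4.72 CPM, against 20.9 CPM for all genes tested, and their GC content of 47.6% was near the 47.8% of all.

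Genes with a match to an siRNA seed lay lower in si-PTBP1. Matches are the 7 bases that pair with the seed, AAGTACA for siRNA-1 and CTGCACA for siRNA-2, on the mRNA strand of the longest annotated 3′ UTR, and 11740 tested genes had such a UTR. The 1545 genes with a match for siRNA-1, 13.2% of all, had a median of 0.07, against 0.13 without. The 1771 genes with a match for siRNA-2, 15.1%, had 0.08, against 0.13. In the group of siRNA-2, 25 genes fell (1.41%), against 0.552% of genes without a match, and in that of siRNA-1 16 fell (1.04%), against 0.628%. Of the 80 falls with a UTR, 35 (43.8%) had a match for either siRNA, against 25.1% of the genes. Where the siRNA-2 match was followed by an A, the 390 genes had a median of -0.01, and after a siRNA-1 match, 492 genes, 0.04. Genes with more than 1 match were not lower than those with any, with medians of 0.09 for siRNA-1 and 0.10 for siRNA-2. This was not split by UTR length, so whether more matches went with lower values cannot be read from it. Genes with a match also rose about as often as those without, 3.11% against 3.03% for siRNA-1 and 3.33% against 2.99% for siRNA-2.

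Long UTRs hold more matches, and the difference was seen within UTR lengths. In each of 4 classes of UTR length the genes with a match had the lower median, by siRNA-1 from -0.11 against 0.07 in the shortest to 0.11 against 0.19 in the longest, and by siRNA-2 from -0.05 against 0.07 to 0.13 against 0.19. Matches to the seeds of the sense strands went the other way, with medians of 0.16 and 0.14, against 0.12 without. The 379 genes with a match to the seed of the control siRNA (TGTCACG) had a median of 0.21, against 0.12. The 265 with a match to the seed of its sense strand had 0.28, that is, both were lower in the control library. The sense strand and control siRNA comparisons were not split by UTR length. Genes with a match to the control siRNA seed had a median UTR of 3052 bases, against 1375 without. Genes without a PTBP1 siRNA match themselves had higher medians in the longest UTRs than in the shortest, as given above. In si-hnRNPK and si-lncRNA-LBCS genes with a siRNA-2 match had medians of -0.11 and -0.01, equal to those without a match to 2 decimals. For siRNA-1 the medians in si-hnRNPK were -0.14 with a match and -0.10 without, so part of that difference was also seen in a library without this siRNA.

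**Figure D5:**
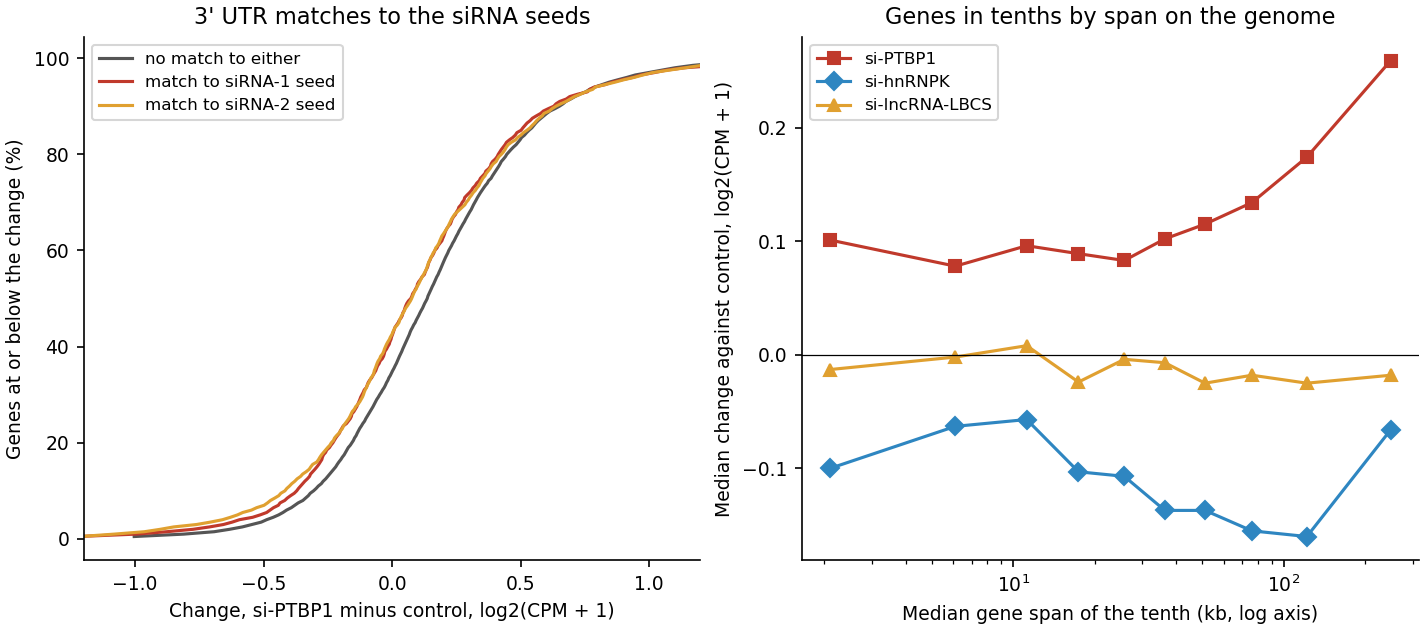
Left, percentage of genes at or below each change for genes with a 3′ UTR match to the seed of siRNA-1 or siRNA-2 and for genes with neither; the matched curves lie to the left over most of the range. Right, median change against control in 10 groups of genes by span (kb, log axis) for the 3 knockdown libraries; in si-PTBP1 it climbs to 0.26 in the longest group.

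Of the 15 largest falls 3 had such a match, and of the 64 falls with a symbol and at 10 CPM or more in control that held under both scalings, PTBP1 included, 30 had one. Of the 11740 tested genes with a 3′ UTR, 25.1% had a match for either siRNA. TMEM64 held 3 matches for siRNA-1, JDP2 held 2 for siRNA-2, and SLC7A11 held 1 for each. RPS20, MMP9, ASNS and PHGDH held none. The mRNA stretches with the longest unbroken run of pairing in SLC7A11, JDP2 and PGAM1 are shown for siRNA-2, and that of SMARCD2 for siRNA-1. They are examples and were not chosen by their number of paired bases. No stretch of TMEM64 is shown. For siRNA-2 the runs in RDH11 (11) and AK4 (10) were longer than those in SLC7A11, JDP2 and PGAM1 (9 each). Capitals are the bases that pair with the guide strand, and positions are on GRCh38.
SLC7A11 3′ UTR, minus strand, chr4:138164472-138164490: agCaCtgatgCCTGCACAA
JDP2 3′ UTR, plus strand, chr14:75473814-75473832: ggtatAaaagCCTGCACAA
PGAM1 3′ UTR, plus strand, chr10:97432583-97432601: gCCcCtcccACCTGCACAt
SMARCD2 coding sequence, minus strand, chr17:63834499-63834517: aCCTCAACGTCAAGTgCAc
SMARCD2 has no seed match in its 3′ UTR, but 16 of the 19 bases of this coding stretch pair with siRNA-1, 14 of them in a row. Besides PTBP1 it was the only 1 of 13457 tested genes with annotated transcripts that held a run of 14 for siRNA-1. A run of at least 13 was found in 7 genes, SMARCD2 included, with a median of -0.23, of which SMARCD2 fell and FAM171A2 rose (1.01). For siRNA-2, a run of at least 13 was found in 8 genes, with a median of -0.03, and none of them was called. Of these, MEN1 and MDGA1 held a run of at least 14, with changes of -0.78 and 0.20. The part of this pairing in the falls of these genes was not tested, and no library with a single PTBP1 siRNA was analysed here.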

How the data were processed

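RNA of 4 UM-UC-3 cultures, 1 library each, was sequenced by the authors, who deposited 1 table of CPM per library with Ensembl gene identifiers. The labels name hg19; the aligner, counter and annotation are not given in the sources used here. All values with reads were whole multiples of 1 read (tolerance 0.01 of a read), and placeholders of genes without reads were set to 0. Genes present in only 1 of both tables (1448 and 1020, of which 1 in each was at 1 CPM or more) were not used. Changes were differences in log2(CPM + 1) for genes at 1 CPM or more in either library, with a threshold of 1. No p-value was computed. Scaling was checked by median of ratios over 12362 genes (shift 0.13).

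The members and the 36 gene lists were chosen with earlier results of these data known. Of the lists, the 1 of mitochondrial genes was not analysed here. Named genes were PTBP1 to PTBP3, the 15 largest rises and falls under both scalings among genes that have a symbol and reach 10 CPM, and list members past the threshold, some of which are not reported here. Symbols matched 13414 and GENCODE release 29 (GRCh38) matched 13457 of the 13855 genes, by identifier. siRNA sequences are from the labels. Alternatives varied the pseudocount (0.1), the filter (none or 5 CPM), the fold threshold (1.5), the scaling and the reference, or added an exact binomial test. The scripts were tested on simulated data. Calculations ran in Python 3.11.15 with pandas 2.3.3, numpy 2.4.6, scipy 1.17.1 and matplotlib 3.10.9.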

Additional observations from a re-analysis of the deposited data

How the results depend on the processing

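Against the reported 404 rises and 85 falls, a pseudocount of 0.1 gave 793 and 173, a threshold of 1.5-fold 1673 and 432, and median-of-ratios scaling 257 and 133. The geometric mean of control and both other knockdowns as the reference gave 234 rises and 74 falls. No filter and the binomial test (q at most 0.05 for 10221 genes, a comparison of libraries and not of conditions) left both counts as they were, and a filter of 5 CPM gave 307 and 75. The change of PTBP1 was -1.76 with median-of-ratios scaling. That of PTBP2 was 1.52 with that scaling, 2.27 against the mean of 3 libraries and 2.59 against the other knockdowns alone, a reference added after seeing the data, and that of PTBP3 was 0.085, 0.463 and 0.589. PTBP2 and the 15 largest rises and falls, 31 genes, kept their sign under the other pseudocount, filters, scaling and references. VSTM1 was below the threshold against the mean of 3 libraries and 9 genes against the other knockdowns. Medians changed sign in 10 of 35 lists with median-of-ratios scaling, in 10 against the mean of 3 libraries and in 11 against the other knockdowns. Against the mean of 3 libraries the medians were 0.147 for S phase, 0.151 for G2/M and 0.250 for cyclin genes, and -0.675 for interferon genes, with 0 rises and 15 falls of 47. No paired analysis was possible because each condition has 1 library. For the same reason depth limits little here, and the spread between cultures is unknown.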
